A study of Mus musculus with 2 samples.

Results

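The genes described here are 10 markers of alternative macrophage polarization, Arg1, Retnla, Chil3, Alox15, Mgl2, Clec10a, Pdcd1lg2, Cdh1, Fn1 and Tgm2, followed in the nascent RNA of mouse bone marrow-derived macrophages (BMDMs). They were taken by name from the annotated transcript lists of both libraries of the study, and Chil3, which the lists carry under its older symbol Chi3l3, was found through its Ensembl identifier. Of the 10 genes, 6 were among the 11054 gene names that carried at least 1 called transcript in either library. Retnla, Alox15, Cdh1 and Fn1 were called in neither.

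The assay, Global Run-On sequencing (GRO-seq), lets RNA polymerases already engaged on the DNA of isolated nuclei extend their transcripts with a bromine-tagged nucleotide, so that RNA in the making is sequenced. Wild-type mice on the C57BL/6 background, aged 8 to 12 weeks, gave the bone marrow, which was grown for 6 days in supernatant of the L929 fibroblast line, a source of M-CSF, on which macrophages depend. The control library came from such BMDMs without IL-4 and the other library from BMDMs given 20 ng/ml IL-4 for 1 hr. Run-on reactions were made in duplicate and pooled before library preparation, which left 1 library per condition (n = 1), no replicate error and no test for any value below.

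IL-4 binds a receptor at the macrophage surface, the attached JAK kinases phosphorylate the transcription factor STAT6, and STAT6 dimers enter the nucleus and bind palindromic DNA sites. The genes that respond make up the alternative, or M2, program known from worm infection, allergy and wound repair. Some of its markers are soluble effectors or enzymes (Arg1, Retnla, Chil3, Alox15), some are lectins that bind galactose-type sugars (Mgl2, Clec10a), and others act at the cell surface (Pdcd1lg2, Cdh1) or on the extracellular matrix (Fn1, Tgm2). Several are used as markers of macrophages held in IL-4 for a day or longer, whereas the exposure here was 1 hr.

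Each library was a list of transcripts, that is, strand-specific stretches of nascent RNA signal called by HOMER in that library alone, with a score rounded to 1 decimal. The control list held 43122 transcripts and the IL-4 list 51365. The scaling of the score and the sequencing depth are unknown, so a gene without a transcript was below what the caller detected and was not shown to be silent. IL-4 transcripts were longer (median 312 bp against 227 bp) and carried lower scores, with 63.9% of them at 0.2 or less against 45.4% in control. All 9 macrophage genes looked up had transcripts in both libraries with summed values of 23.1 in control and 22.6 after IL-4. None of 4 fibroblast, 3 dendritic cell and 3 epithelial markers had any in either library. Of 5 T cell markers 2 were called in control and 1 after IL-4, of 4 B cell markers 1 and 1, of 5 neutrophil markers 2 and 2, and of 3 erythroid markers 0 and 2, with no value above 0.8.

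Transcripts of the markers numbered 7 in control and 24 after IL-4, which was 3.43 times as many, while the whole list grew 1.19 times. Mgl2 and Clec10a were the 2 markers called in control. After IL-4 both were called again, and 4 more had transcripts, Pdcd1lg2 with 6, Tgm2 with 4, Chil3 with 2 and Arg1 with 1. No marker was called in control and lost after IL-4. Gene names with a transcript after IL-4 and none in control made up 11.1% of all 11054, and those with the reverse pattern 8.58%. All 11054 names had a transcript in at least 1 library. The 4 newly called markers are therefore to be read against the 6 called ones, not all 10. In a bulk library, transcription in fewer cells and less transcription per cell cannot be told apart.

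**Figure D1:**
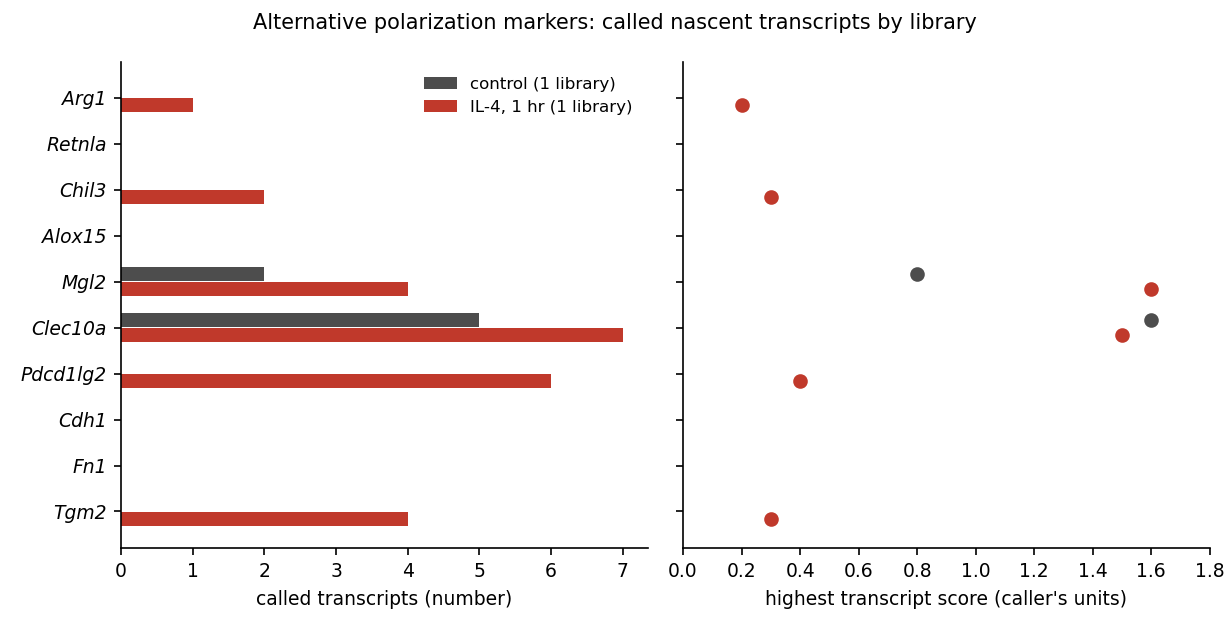
Number of called transcripts (left panel) and highest transcript score in the caller's units (right panel) for each of the 10 markers, control in grey and IL-4 in red, 1 library each. Only Mgl2 and Clec10a have grey bars (2 and 5 transcripts), 6 markers have red bars, and Retnla, Alox15, Cdh1 and Fn1 are blank in both libraries.

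Gene names depend on the nearest start site, so the genes were also read by position on the same strand, with any transcript name allowed. In that view Mgl2 and Clec10a had transcripts in both libraries, Pdcd1lg2, Tgm2 and Chil3 in the IL-4 library and not in control, and the other 5 markers in neither. Arg1 moved to the last class, because its single transcript lay upstream on the opposite strand. Over 21951 protein-coding genes, 32.9% had same-strand transcripts in both libraries, 4.83% after IL-4 and not in control, 3.07% in control and not after IL-4, and 59.2% in neither.

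Promoter sequences of 4 markers were at hand from RefSeq (GRCm38.p6), and they are shown because they hold, or lack, the palindromes to which STAT proteins can bind. Each line gives the 250 bases before the RefSeq start site, 5′ to 3′ on the gene's strand, with a match to TTCNNNGAA or TTCNNNNGAA in capitals. STAT6 is known to prefer the longer spacer. Both motifs read the same on either strand, so 1 search covered both strands.
Pdcd1lg2: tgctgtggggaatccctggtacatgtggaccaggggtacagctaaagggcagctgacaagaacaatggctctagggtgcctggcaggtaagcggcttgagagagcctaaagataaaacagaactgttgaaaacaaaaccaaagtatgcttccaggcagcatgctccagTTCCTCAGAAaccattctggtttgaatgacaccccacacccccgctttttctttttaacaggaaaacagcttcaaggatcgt
Retnla: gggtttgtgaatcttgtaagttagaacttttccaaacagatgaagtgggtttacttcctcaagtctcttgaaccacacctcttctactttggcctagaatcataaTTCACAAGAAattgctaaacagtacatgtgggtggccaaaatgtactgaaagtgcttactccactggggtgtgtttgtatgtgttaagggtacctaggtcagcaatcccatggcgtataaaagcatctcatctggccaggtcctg
Chil3: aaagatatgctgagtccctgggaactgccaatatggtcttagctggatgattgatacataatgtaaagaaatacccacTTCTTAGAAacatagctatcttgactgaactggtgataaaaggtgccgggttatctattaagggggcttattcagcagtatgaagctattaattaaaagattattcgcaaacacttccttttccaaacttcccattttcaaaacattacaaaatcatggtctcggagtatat
Mgl2: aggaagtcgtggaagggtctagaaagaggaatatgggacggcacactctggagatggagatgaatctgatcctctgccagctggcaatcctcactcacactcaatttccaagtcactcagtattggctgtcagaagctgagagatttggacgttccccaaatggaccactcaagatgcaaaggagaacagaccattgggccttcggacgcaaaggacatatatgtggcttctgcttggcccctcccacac

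The stretches lie at chr19:29410669-29410918 (plus strand, Pdcd1lg2), chr16:48842359-48842608 (plus, Retnla), chr3:106167565-106167814 (minus, Chil3) and chr11:70130107-70130356 (plus, Mgl2). The match with the 4-base spacer began 82 bases before the start site of Pdcd1lg2 and 145 bases before that of Retnla. Chil3 held the 3-base form, starting 172 bases before its start site. Mgl2 held neither form in this window. Among 32851 RefSeq promoters of the same length, 5.85% held the 4-base form and 7.02% the 3-base form. Of the 3 markers with a match, Pdcd1lg2 and Chil3 were called after IL-4 and not in control and Retnla in neither library, and Mgl2, without a match, was called in both.

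Mgl2 and Clec10a encode the paired galactose-type C-type lectins of mouse macrophages (CD301b and CD301a). They lie on the plus strand of chromosome 11, Mgl2 (ENSMUSG00000040950.13) at 70130329 to 70137550 and Clec10a (ENSMUSG00000000318.16) at 70156197 to 70170834, with 18647 bp between them. Clec10a is longer in GENCODE, which gives these positions, than in the RefSeq model that the files use for start sites, introns and exons, so that the start site of the files lies well inside the GENCODE gene. They are close paralogs, and how the alignment divided reads that match both is not known, so their values are uncertain to that extent. The value of a gene was taken as the highest score among its transcripts. Log2 ratios (IL-4 over control) were centred by subtracting their median over the 8879 genes with a value in both libraries, which was -0.38.

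The highest score of Mgl2 was 0.8 in the control library and 1.6 in the IL-4 library, and its centred log2 ratio was 1.38. Rounding of the scores allowed 1.25 to 1.52, which is not a replicate error. Of the 8879 genes, 228 had a higher ratio, 303 including Mgl2 were tied at this value of the rounded scores, and 94.0% were lower. Mgl2 was thus the single marker at least 2-fold higher, and no marker was at least 2-fold lower. Over all genes 8.06% were at least 2-fold higher and 8.62% at least 2-fold lower. The highest score of Clec10a was 1.6 in the control library and 1.5 in the IL-4 library, and its centred ratio was 0.29 (rounding range 0.19 to 0.38) with 59.2% of genes lower. The SD of the ratio over all genes was 0.78.

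**Figure D2:**
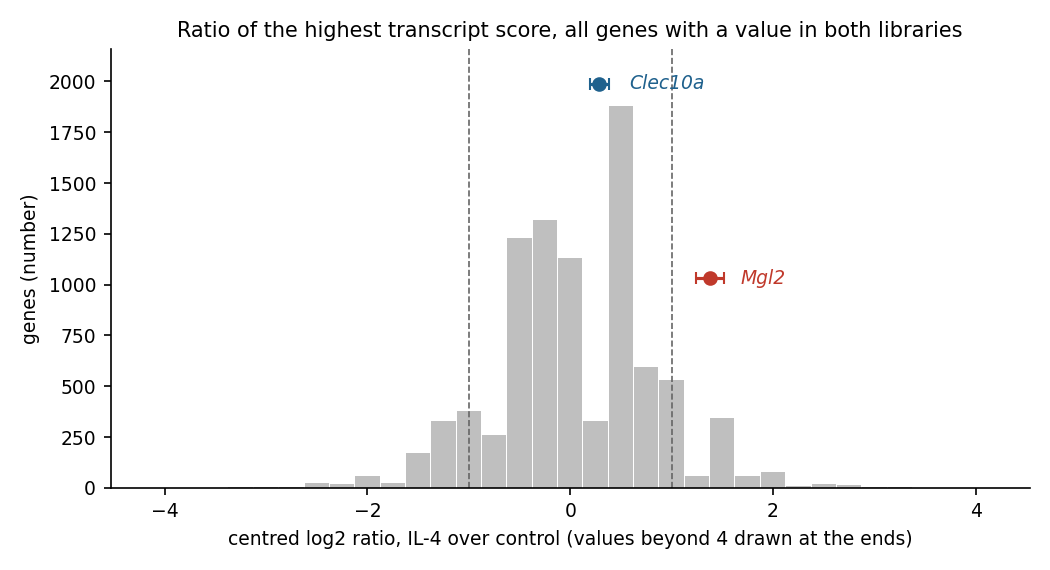
Histogram of the centred log2 ratio (IL-4 over control) of the highest transcript score for all 8879 genes with a value in both libraries, with Mgl2 and Clec10a as points whose bars span the range that rounding of the scores allows (1 library per condition). Dashed lines mark 2-fold, and Mgl2 at 1.38 lies beyond the upper line while Clec10a at 0.29 lies between them.

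Both ratios turned on a very short control transcript. The highest scoring Mgl2 transcript in control was a 44 bp segment in intron 1 (70131758 to 70131801) that the annotation places in a (TTTTG)n simple repeat, and after IL-4 it was a 119 bp segment over the same repeat (70131715 to 70131833). Away from this repeat, the start region of Mgl2 scored 0.2 in control over 280 bp (70130254 to 70130533) and 0.1 after IL-4 over 636 bp (70130336 to 70130971), with a centred ratio of -0.62 and a rounding range of -1.94 to 0.38. Without transcripts in simple repeats or low complexity sequence the value of Mgl2 was 0.2 in both libraries and its centred ratio 0.32. These values came from different places, the start region in control and segments without a control counterpart after IL-4. With the transcript nearest the start site of the files the ratio was -1, from 0.2 in control to 0.1 after IL-4, where the median gene ratio was 0 before centring. Rounding of these 2 scores did not exclude equal values. The 2-fold difference of Mgl2 was therefore a difference at the repeat, and the segment at the start of the gene did not share it.

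For Clec10a the order was the opposite. Its highest scoring control transcript was a 63 bp segment in CT-rich low complexity sequence of intron 1 (70167387 to 70167449, score 1.6), which a 710 bp segment of score 1.5 covered after IL-4 (70167375 to 70168084). The first segment of Clec10a (control 70166797 to 70167231, IL-4 70166674 to 70167237), centred 391 and 332 bp past the start site of the files but 10817 and 10758 bp past the GENCODE start, scored 0.7 in control and 1.5 after IL-4, with a centred ratio of 1.48 and a rounding range of 1.33 to 1.63. The segment over the last exon and the 3′ UTR (control 70170178 to 70170739, IL-4 70170429 to 70170828) scored 0.5 and 0.9, a centred ratio of 1.23 (1.01 to 1.46). The segment centred 2280 bp (control) and 2033 bp (IL-4) past the start site of the files scored 0.6 and 0.6, and the one beyond its 3′ end scored 0.4 and 0.3, with centred ratios of 0.38 and -0.04. Without transcripts in simple repeats or low complexity sequence the value of Clec10a was 0.7 without and 1.5 with IL-4, and its centred ratio was 1.42. These segment ratios were centred on the median of the gene values, since no median over segments was worked out. So centred, 2 of the 5 control segments of Clec10a had a counterpart at least 2-fold higher after IL-4 and 3 did not. Without centring, the log2 ratios were 1.10 for the first segment and 0.85 for the last-exon segment, which is below 2-fold.

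**Figure D3:**
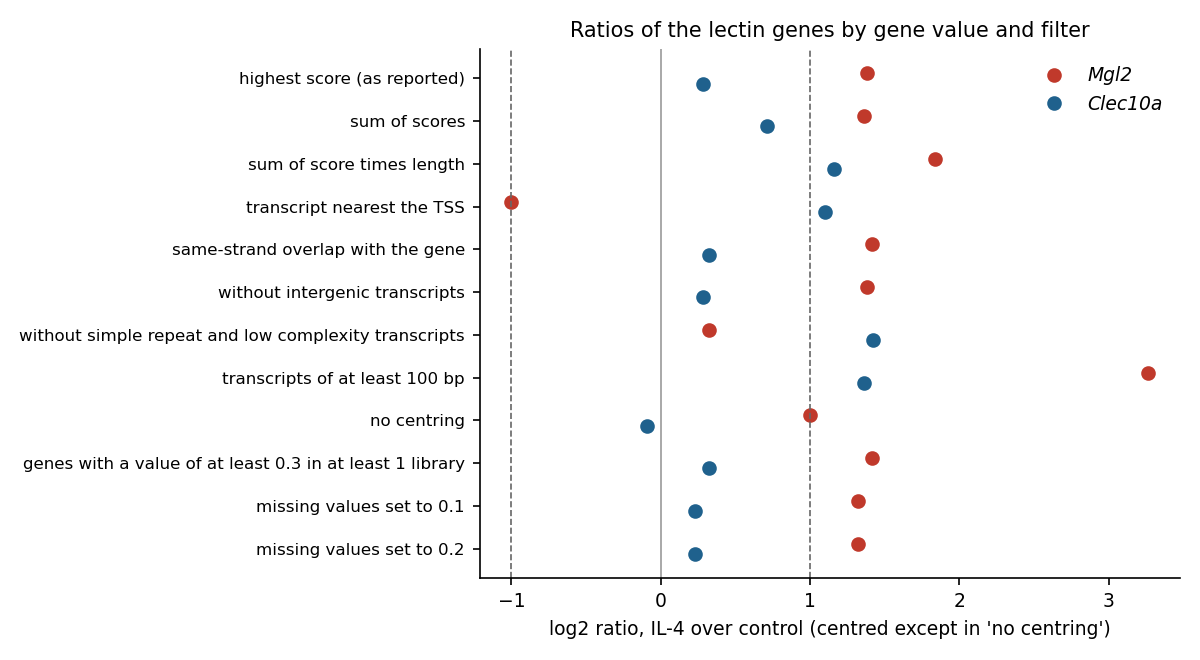
Log2 ratio (IL-4 over control) of Mgl2 in red and Clec10a in blue under each definition of the gene value and each filter, 1 library per condition, with the median gene set to 0 in all rows but the one without centring. Dashed lines mark 2-fold: Mgl2 falls from 1.38 to 0.32 without simple repeat and low complexity transcripts, while Clec10a goes from 0.29 to 1.42.

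More of both lectin genes was covered after IL-4. The IL-4 list as a whole held more transcripts (51365 against 43122) and longer ones (median 312 bp against 227 bp). The covered share over all genes was not worked out, so the wider cover is not shown to be particular to these genes. Called transcripts on the gene's strand covered 3.45% of Mgl2 in control (249 bp) and 14.7% after IL-4 (1064 bp), and 11.0% (1616 bp) and 14.3% (2097 bp) of Clec10a. The mean score per covered base was 0.281 and 0.279 over all transcripts named Mgl2, and 0.602 and 0.865 over those named Clec10a. These means were not centred on the median gene. As they stand, for Mgl2 the covered length grew and the mean score was nearly equal, whereas for Clec10a both were higher. The IL-4 library also had 2 Mgl2 segments without a counterpart, a 309 bp segment in intron 3 (70135028 to 70135336, score 0.2) and a 235 bp segment on the opposite strand (70129888 to 70130122, score 0.2) whose middle lay 324 bp before the start. Past the 3′ end of Clec10a, segments of score 0.1 (70171254 to 70171488) and 0.2 (70172924 to 70173296) had no control counterpart.

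**Figure D4:**
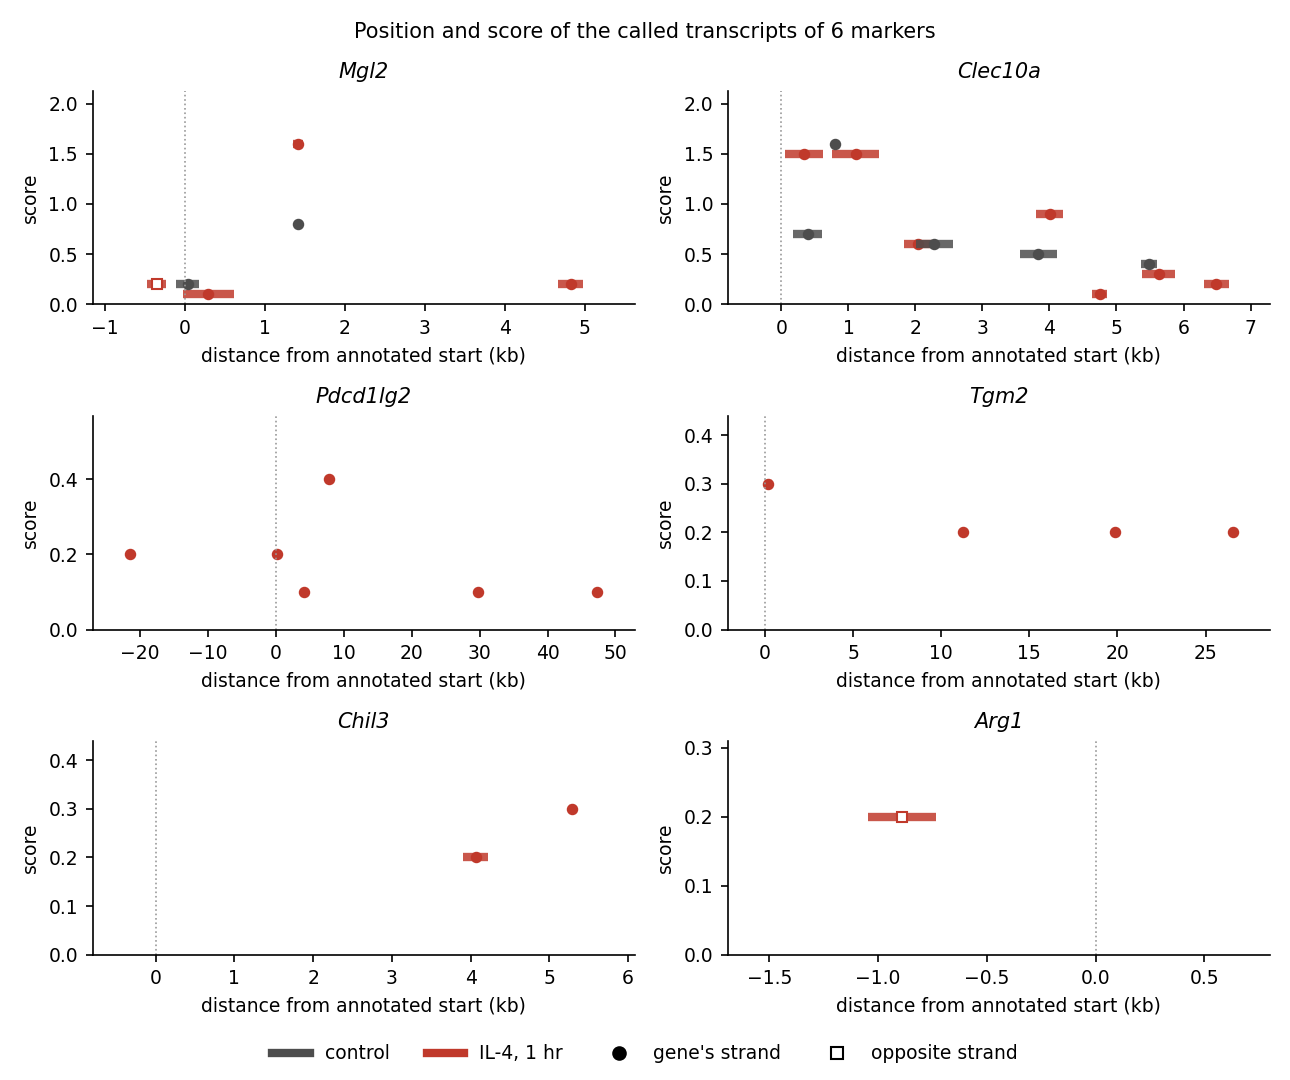
Called transcripts of the 6 markers with any, drawn by distance of the middle from the start site that the files annotate (kb, x axis) and score (y axis, scales differ between panels), control in grey and IL-4 in red, with bars for transcript length and open squares for the opposite strand (1 library each). Grey segments appear for Mgl2 and Clec10a, and the other 4 panels hold red segments of score 0.1 to 0.4.

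Pdcd1lg2 encodes PD-L2, a surface ligand of the inhibitory T cell receptor PD-1. The gene (ENSMUSG00000016498.10) spans 60243 bp of the plus strand of chromosome 19, from 29410919 to 29471161. No control transcript carried its name or overlapped it, and the nearest lay 5.002 kb away. After IL-4 it had 6 transcripts, all on the gene's strand. One covered the 5′ UTR in exon 1 (29410984 to 29411216, score 0.2), 2 lay in intron 1 with scores of 0.1 (29414901 to 29415201) and 0.4 (29418508 to 29419079), and 2 lay in introns 3 and 5 with a score of 0.1 each (29440508 to 29440732 and 29458054 to 29458398, the latter in a (CA)n repeat). The remaining one was intergenic (29389256 to 29389598, score 0.2), and its edges lay 21321 bp before the start of Pdcd1lg2 and 1161 bp past the end of the neighbouring gene Cd274. A further IL-4 transcript within the gene, of score 0.1 in the last intron (29468053 to 29468287), carried the name of A930007I19Rik. Segments thus ran from the start of the gene to its last intron, and together they covered 3.17% of it. Genes with at least 4 transcripts after IL-4 and none in control were 0.57% of all gene names, 63 in number, and Pdcd1lg2 and Tgm2 were among them. The cutoff of 4 is the number that Tgm2 itself had and was not in the plan, so this share is no test. Gene length was not matched.

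**Figure D5:**
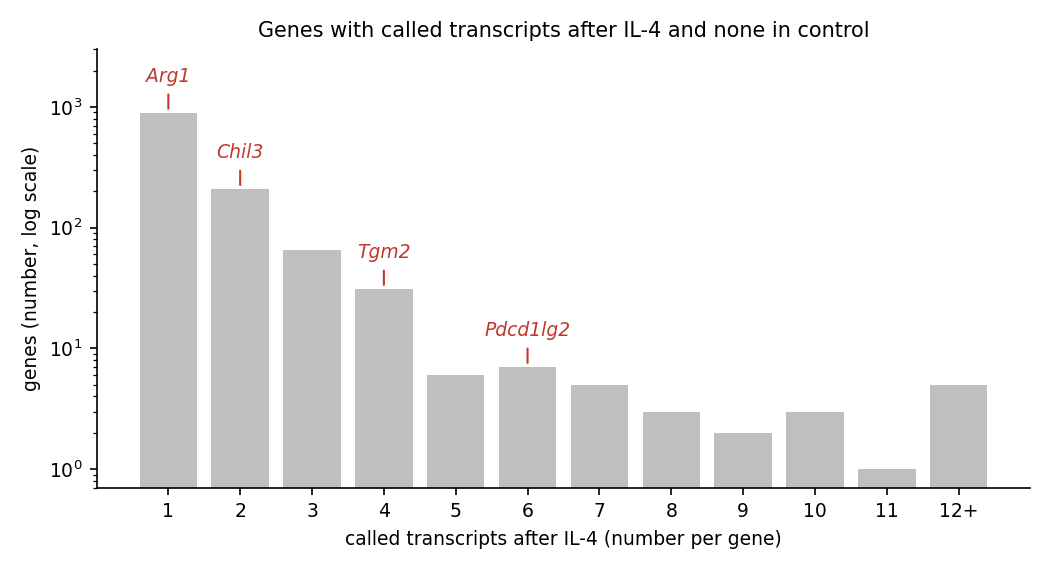
Genes with called transcripts after IL-4 and none in control, by number of transcripts per gene in the IL-4 library (x axis, 12 and over pooled) and number of genes (y axis, log scale), with the bins of the markers named. Of the 1227 genes, 891 have 1 transcript as Arg1 does, while Tgm2 lies at 4 and Pdcd1lg2 at 6.

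Cdh1 encodes E-cadherin, a cell adhesion protein that IL-4-treated macrophages can use in cell fusion. The gene (ENSMUSG00000000303.12, chromosome 8, 106603351 to 106670246, plus strand) is 66896 bp long and had no transcript in either library. The nearest ones, named Tango6, lay 12.849 kb away in control and 12.851 kb away after IL-4.

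Tgm2 encodes transglutaminase 2, which cross-links proteins of the matrix and serves as a marker of alternative polarization in both mouse and human macrophages. The gene (ENSMUSG00000037820.15) lies on the minus strand of chromosome 2, from 158116402 to 158146436. In control the nearest transcript was 47.362 kb away. After IL-4 it had 4 transcripts, all on its strand. The one closest to the start, centred 242 bp into the gene (158145978 to 158146410, 433 bp), had the highest score, 0.3. The other 3, in introns 3 (158135031 to 158135284), 9 (158126458 to 158126644) and 11 (158119720 to 158119997), scored 0.2 each, and the latter 2 lay in a (CAGA)n repeat and a B1 SINE. A further segment of score 0.2 in the 3′ UTR (158116498 to 158116886) carried the name of 2010009K17Rik. As in Pdcd1lg2, the segments reached from the first intron to the far end of the gene, and they covered 5.13% of it.

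Fn1 encodes fibronectin, a matrix glycoprotein. The gene (ENSMUSG00000026193.15, chromosome 1, 71585520 to 71653200, minus strand) is 67681 bp long, the longest of the 10 markers, and had no transcript in either library. The nearest ones, named Bard1, were 483.044 kb away in control and 483.026 kb away after IL-4.

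Arg1 encodes arginase 1, which splits arginine into ornithine and urea and is the most used enzyme marker of mouse M2 macrophages. The gene (ENSMUSG00000019987.9) lies on the minus strand of chromosome 10, from 24915221 to 24927484. Nothing was called within its 12264 bp in either library. Its single IL-4 transcript (24928205 to 24928518, 314 bp, score 0.2) was annotated as promoter-TSS, lay on the plus strand, opposite to the gene, and was centred 877 bp before the start. In control the nearest transcript was 26.443 kb away and carried the name of Med23. Of the 1227 gene names with a transcript after IL-4 and none in control, 72.6% had a single transcript as Arg1 did.

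Chil3 encodes Ym1, a secreted chitinase-like lectin. The gene (ENSMUSG00000040809.10) lies on the minus strand of chromosome 3, from 106147554 to 106167564. In control the nearest transcript was 188.318 kb away. After IL-4 it had 2 transcripts on its strand in intron 3, a 78 bp segment of score 0.3 (106162244 to 106162321) and a 310 bp segment of score 0.2 in A-rich sequence (106163347 to 106163656). They covered 1.94% of the gene and left its start region uncovered. Chil3 has close paralogs such as Chil4, so reads of this gene may be uncertain in the same way as those of the lectins.

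Retnla encodes Fizz1, a secreted cysteine-rich protein. The gene (ENSMUSG00000061100.4, chromosome 16, 48842551 to 48844461, plus strand) is 1911 bp long, the shortest of the 10, and had no transcript in either library. Transcripts named Dzip3 were the nearest, 149.288 kb away in control and 149.168 kb after IL-4. Alox15, whose lipoxygenase product oxidises polyunsaturated fatty acids, was also uncalled in both (ENSMUSG00000018924.6, chromosome 11, 70344152 to 70352031, minus strand). Its nearest transcripts, named Pelp1, were 41.938 kb and 41.944 kb away. The uncalled markers therefore included both the shortest and the longest of the 10 genes.

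The IL-4 transcripts of Pdcd1lg2, Tgm2, Chil3 and Arg1 all scored between 0.1 and 0.4. Counting all 6 called markers, 17 of their 24 IL-4 transcripts had no control transcript on the same strand at the same place, and 0 of 7 control transcripts lacked an IL-4 counterpart. Those of Pdcd1lg2 (6), Tgm2 (4), Chil3 (2) and Arg1 (1) were all among the 17. That was set in advance, since these genes were singled out for having no control transcript. The 7 IL-4 transcripts with a counterpart all belonged to Mgl2 and Clec10a, which had 4 and 7 in all. The pooled 17 of 24 is therefore no like measure beside the shares of the whole lists. Over the whole lists, 48.1% of IL-4 transcripts and 37.4% of control transcripts had no counterpart, and among IL-4 transcripts of score 0.1 to 0.4 the share was 54.8%. Low scores were more frequent in the IL-4 list as a whole, with 33.6% of its transcripts at 0.1 or less against 14.1% in control, and the part of this in the newly called markers was not tested. Among the 1227 genes called after IL-4 and not in control, the median value was 0.2, with 255 at 0.3 or more and 119 at 0.4 or more. Tgm2 and Chil3 reached 0.3, Pdcd1lg2 0.4 and Arg1 0.2. When a missing value was set to 0.1, the lowest marker score, the centred log2 ratios were 2.32 for Pdcd1lg2, 1.91 for Tgm2, 1.91 for Chil3 and 1.32 for Arg1. With 0.2 in its place they were 1.32, 0.91, 0.91 and 0.32, which left Pdcd1lg2 alone among them past 2-fold. The substitute of 0.2 was chosen after seeing the data. None of these genes had a control value, so the ratios follow from the substitute and are no measured difference. Over all genes, 1451 were at least 2-fold higher and 1357 at least 2-fold lower with 0.1. With 0.2 these numbers were 1001 and 1104.

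By class, 15 of the 24 IL-4 transcripts lay in introns, 3 were intergenic, 2 were promoter-TSS and 1 each lay in a 5′ UTR, an exon, a 3′ UTR and a TTS region. In control, 4 of 7 lay in introns. The marker transcripts ranged from 44 to 562 bp in control, with a median of 280 bp, and from 78 to 710 bp after IL-4, with a median of 312 bp. Simple repeats or low complexity sequence held 2 of the 7 control transcripts and 4 of the 24 IL-4 transcripts, beside 11.5% and 7.66% of the whole lists.

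Other genes of the IL-4 response were followed through a list of 25, including the receptor chains, kinases, regulators and further response genes. Of these, 16 were called in control and 22 after IL-4. Among the 15 with a value in both libraries, 4 were at least 2-fold higher and 1 at least 2-fold lower, and the median centred log2 ratio was 0.60, beside 0 over all genes by construction. The 4 were Socs1, a feedback inhibitor of JAK signaling, from 0.3 to 2.5 (centred 3.44), the mannose receptor Mrc1 from 2.7 to 13.1 (2.66), the chemokine Ccl17 from 0.4 to 1.0 (1.70) and the receptor chain Il4ra from 0.9 to 2.2 (1.67). The kinase Jak1 was lower, 7.5 in control and 2.8 after IL-4 (-1.04). Called after IL-4 and not in control were 7 of the 25, and in control and not after IL-4 was Il2rg. Of the 6 called markers, 4 were newly called. Only 2 markers had a value in both libraries, and 1 of these, Mgl2, was at least 2-fold higher by its highest score. Of all 10 markers, 4 were not called by name in either library, against 2 of the 25, Il13ra1 and Ccl22. Both lists were chosen by hand with earlier results of these data known, so their counts and the median of 0.60 are no test. Of all gene names with a transcript in either library, 11.1% were newly called after IL-4. Of genes with a value in both libraries, 8.06% were at least 2-fold higher. Of all protein-coding genes, 59.2% had no same-strand transcript in either library. By that measure 5 of the 10 markers had one after IL-4, and the others, Arg1 among them, had none in either library. The uncalled markers are therefore no low rate of detection.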

How the data were processed

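The authors made 1 GRO-seq library per condition from pooled duplicate run-on reactions, aligned reads to mm10 (GRCm38) with BWA, removed ENCODE blacklisted regions and called transcripts per library with the groseq style of HOMER. The submitters' processing notes name BWA 0.7.10, SAMtools 0.1.19 and HOMER 4.2. The deposited value is a score per transcript, rounded to 1 decimal, whose scaling is not given in the sources used here. No read counts were used, so depth is unknown and no interval for counting error was given.

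Groups came from the treatment labels. A gene's value was the highest score among transcripts bearing its name in the lists. Older symbols and Ensembl identifiers served to find the name that a marker or other looked-up gene carries there. Log2 ratios, those of single segments included, were centred on the median gene, and 2-fold was the threshold for a difference. Counterparts overlapped by at least 1 bp on the same strand. The sign of the files' start-site distances, reversed on the minus strand, was corrected. Gene positions were from GENCODE M21 and promoters from RefSeq GRCm38.p6 (4 of 10 markers matched). Scripts ran in Python 3.11.15 with numpy 2.4.6, pandas 2.3.3 and matplotlib 3.10.9 and were tested on simulated data. Named genes were all 10 markers, up to 6 of the IL-4 response list with the largest ratios, and genes naming transcripts within or nearest a marker. Il2rg, Il13ra1, Ccl22 and Cd274 fall outside this rule and were named after their values were seen. The markers and gene lists were chosen with earlier results of these data known. Alternatives changed the gene value, transcript filters, centring, missing values and overlap rule. Marker transcripts themselves could not be shown as sequence, since no genome sequence was used here.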

Additional observations from a re-analysis of the deposited data

Results flagged for a closer look

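Cd274, which encodes PD-L1, the other ligand of PD-1, lies 22824 bp before Pdcd1lg2 on the same strand (chromosome 19, 29367455 to 29388095). It is no marker of the set, was chosen after its values were seen, and drew attention because an intergenic transcript next to it was named Pdcd1lg2. Cd274 had 20 transcripts after IL-4 against 4 in control. Its highest score went from 0.4 to 1.2, and its centred log2 ratio was 1.96 with a rounding range of 1.73 to 2.22.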

How the results depend on the processing

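No paired analysis was possible because there was 1 library per condition, and no library could be left out. The centred log2 ratio of Mgl2 (1.38 as reported) was 1.84 with the sum of score times length and 0.32 without simple repeat and low complexity transcripts. It was 3.26 with transcripts of at least 100 bp, 1.00 with no centring, and -1 with the transcript nearest the start site. The cut at 100 bp dropped the 44 bp control segment (0.8) and kept the 119 bp IL-4 segment (1.6) over the same repeat. The 3.26 thus set 0.2 at the start of Mgl2 in control against 1.6 at the repeat after IL-4. The -1 came from scores of 0.2 and 0.1, whose rounding did not exclude equal values. That of Clec10a (0.29) was 0.71 with the sum of scores, 1.16 with score times length, 1.10 nearest the start site, 1.42 without simple repeats, 1.36 at 100 bp or more and -0.093 with no centring. The number of markers at least 2-fold higher (1) became 2 with score times length, with 100 bp or more and with missing values at 0.2, and 5 with missing values at 0.1. The number at least 2-fold lower (0) became 1 nearest the start site, which was Mgl2 by scores whose rounding did not exclude equal values. Over all genes, 716 higher and 765 lower became 1208 and 1219 with the sum of scores, 1529 and 1500 with score times length, 1451 and 1357 with missing values at 0.1, and 326 and 342 when 2-fold had to hold over the rounding range. The lower ones alone became 2461 nearest the start site, where 974 were higher, and 2161 with no centring, where 531 were higher. Control marker transcripts without a counterpart (0) became 1 when 50% overlap was required, with 21 in the IL-4 library, and IL-4 ones were 15 after widening by 500 bp. The number of markers called stayed at 2 in control under all 5 alternatives and was 5 or 6 after IL-4. The exact-name match and the missing value of 0.2 were added after seeing the data. Unknown depth limits each count of called genes.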
